A study of Mus musculus with 18 samples.

Results

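Interferon-stimulated antiviral genes are genes whose RNA rises in a cell exposed to interferon and whose products limit virus replication. The set described here holds 38 of them, chosen by symbol from the interferon-stimulated genes outside the OAS, GBP and IRG, p200, Schlafen and IRF families, which are sets of their own. Members were chosen with earlier results of these data known, so the shares below describe the set and do not test it independently. All 38 were among the 23420 genes in the deposited tables, and all 38 were among the 11876 genes with enough reads to be tested. Of the 38, 36 would also have passed that filter on the 6 medium libraries alone, whereas Ifit3 and Ifi44 passed only with the other libraries, through the groups in which they were high.

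The RNA came from mouse bone marrow-derived dendritic cells (BMDC) of the C57BL/6 strain, re-plated at culture day 9 with 20 ng/ml GM-CSF, the growth factor that drives this culture, and treated for 8 h. Live CD11c-high cells were then sorted and their RNA sequenced in bulk, with 3 libraries in each of 6 groups. Wild-type (WT) cells were given medium, LPS, IL10 with TGF-β (called cytokines below), or LPS with both cytokines. Cells labelled Bat3 fl/fl CD11c Cre (cKO) were given medium or LPS. Bat3, whose gene symbol is Bag6, is a chaperone protein of the cytosol and nucleus. The Cre is driven by CD11c, so deletion follows expression of that gene, and the label of the WT group names neither a floxed allele nor a Cre. The labels give no doses for LPS or the cytokines. They mention 5 biological replicates, and 3 libraries per group are analysed here. Nothing in them ties a library to an animal or a culture, so the p-values measure the spread between these libraries, which may be technical.

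LPS binds TLR4, and the branch of TLR4 signalling that runs through TRIF and the kinase TBK1 activates IRF3, which switches on the interferon-β gene. Secreted type I interferon binds the receptor pair IFNAR1 and IFNAR2, the kinases JAK1 and TYK2 become active, and a transcription factor complex that contains IRF9, called ISGF3, binds the interferon-stimulated response element (ISRE) in the promoters of interferon-stimulated genes. Their products bind or edit foreign RNA, sense it, tag proteins with ISG15, block virus entry and release, or alter nucleotides and ADP-ribosylation, and dendritic cells use them both to resist infection and to sustain the alarm.

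Promoters were read for an ISRE core because the members moved together in what follows. The RefSeq table (GRCm38.p6, the assembly of the mm10 build) held promoter windows of 300 bases, from 250 before to 50 after the start site, for 28 of the 38 members. Windows were searched on both strands for TTTC and TTTC parted by any 2 bases, which on the other strand reads GAAA and GAAA parted by 2, and matches may overlap. The core was present in 12 of the 28 members (42.9%), against 3.99% of the 27025 genes in the table and 3.44% of its 32851 promoter windows. The GAS motif TTCNNNGAA was present in 7 of the 28 (25%) and in 9.55% of all genes. The 10 members without an entry were Dhx58, Zbp1, Usp18, Mx1, Mx2, Parp9, Parp14, Rtp4, Tor3a and Ly6a. Stretches upstream of the start site are printed for the 6 members with a core there that responded most to LPS, 5′ to 3′ on the strand of the gene, with the matches in capitals.
Rsad2: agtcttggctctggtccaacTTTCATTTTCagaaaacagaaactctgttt
Ifit3: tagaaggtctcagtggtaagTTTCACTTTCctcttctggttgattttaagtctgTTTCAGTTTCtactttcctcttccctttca
Ifit1: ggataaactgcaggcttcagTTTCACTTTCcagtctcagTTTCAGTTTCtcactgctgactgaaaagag
Isg15: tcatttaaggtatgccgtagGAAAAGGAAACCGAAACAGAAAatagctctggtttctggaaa
Ddx60: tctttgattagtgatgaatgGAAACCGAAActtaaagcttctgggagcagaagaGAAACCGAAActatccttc
Bst2: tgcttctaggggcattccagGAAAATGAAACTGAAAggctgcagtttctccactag
They lie at chr12:26456543-26456592 (minus strand, Rsad2), chr19:34583353-34583436 (plus, Ifit3), chr19:34640765-34640833 (plus, Ifit1), chr4:156200855-156200916 (minus, Isg15), chr8:61928014-61928086 (plus, Ddx60) and chr8:71537567-71537622 (minus, Bst2). In Isg15 and Bst2 the matches overlap into 1 run, whereas Ifit3, Ifit1 and Ddx60 carry separate matches. The median response to LPS in WT cells was 3.95 on the log2 scale in the 12 members with a core and 2.77 in the 16 without, and their ranges, 1.49 to 11.06 and 1.54 to 10.51, overlapped. A match describes these letters and is not a measured binding site.

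Each library held between 8056822 and 12068761 counts. Bag6 itself stood between 22.8 and 27.6 CPM (counts-per-million, on TMM-scaled library sizes) in the 12 WT libraries and between 4.56 and 11.3 in the 6 cKO libraries, without overlap, so the transcript was lower and not absent. The cKO libraries numbered 1, in both the medium and the LPS group, stood apart in Xist, at 526 and 1014 CPM against at most 1.12 in the others, and results of the genotype comparisons are given with and without them. No WT library stood apart in this way, and the labels do not give the sex of the animals. Rn45s, a ribosomal RNA precursor, took 1.28% to 4.01% of counts in cKO medium and 6.38% to 8.02% in WT medium. Among 7 dendritic cell markers, all were detected in each group except Flt3, which was at 0 in cKO LPS. Their summed level was 4270 to 9692 CPM in WT medium and 1600 to 2148 CPM with cytokines. Lymphocyte markers summed to at most 1.75 CPM and stromal markers to at most 5.30 CPM.

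LPS raised every one of the 38 members in WT cells. Summed over the members, the length-adjusted level was 997 to 1173 TPM (transcripts-per-million) in the 3 WT medium libraries and 14220 to 16320 TPM in the 3 WT LPS libraries. On that scale the highest members in WT medium were Ifitm3 at 365 ± 70.9 TPM (SD, n = 3), Bst2 at 172 ± 10.1 and Lgals3bp at 135 ± 11.9, and with LPS Ifitm3 at 3581 ± 138 and Bst2 at 2426 ± 123 led, followed by Rsad2 at 1095 ± 219 and Isg15 at 1035 ± 94.1. In edgeR's quasi-likelihood test with Benjamini-Hochberg adjustment over all genes, called at an adjusted p below 0.05, 38 of 38 members were higher and 0 lower, whereas 58.7% of all genes tested were called, 29.8% higher and 28.9% lower. All 38 also had their 3 LPS libraries above their 3 medium libraries, which held for 32.2% of all genes, with 30.9% wholly below. The members' median log2 fold change was 3.81, beside 0.01 over all genes. The response reached 4-fold in 34 members, 16-fold in 17 and 100-fold in 9. All genes were not counted at these thresholds, and some of the largest responses rest on few counts in medium, such as 2 in Ifi44. Changes given below as a rise or a fall by a number are log2 fold changes. In the plot of the 4 WT treatments these differences can be read library by library.

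**Figure D1:**
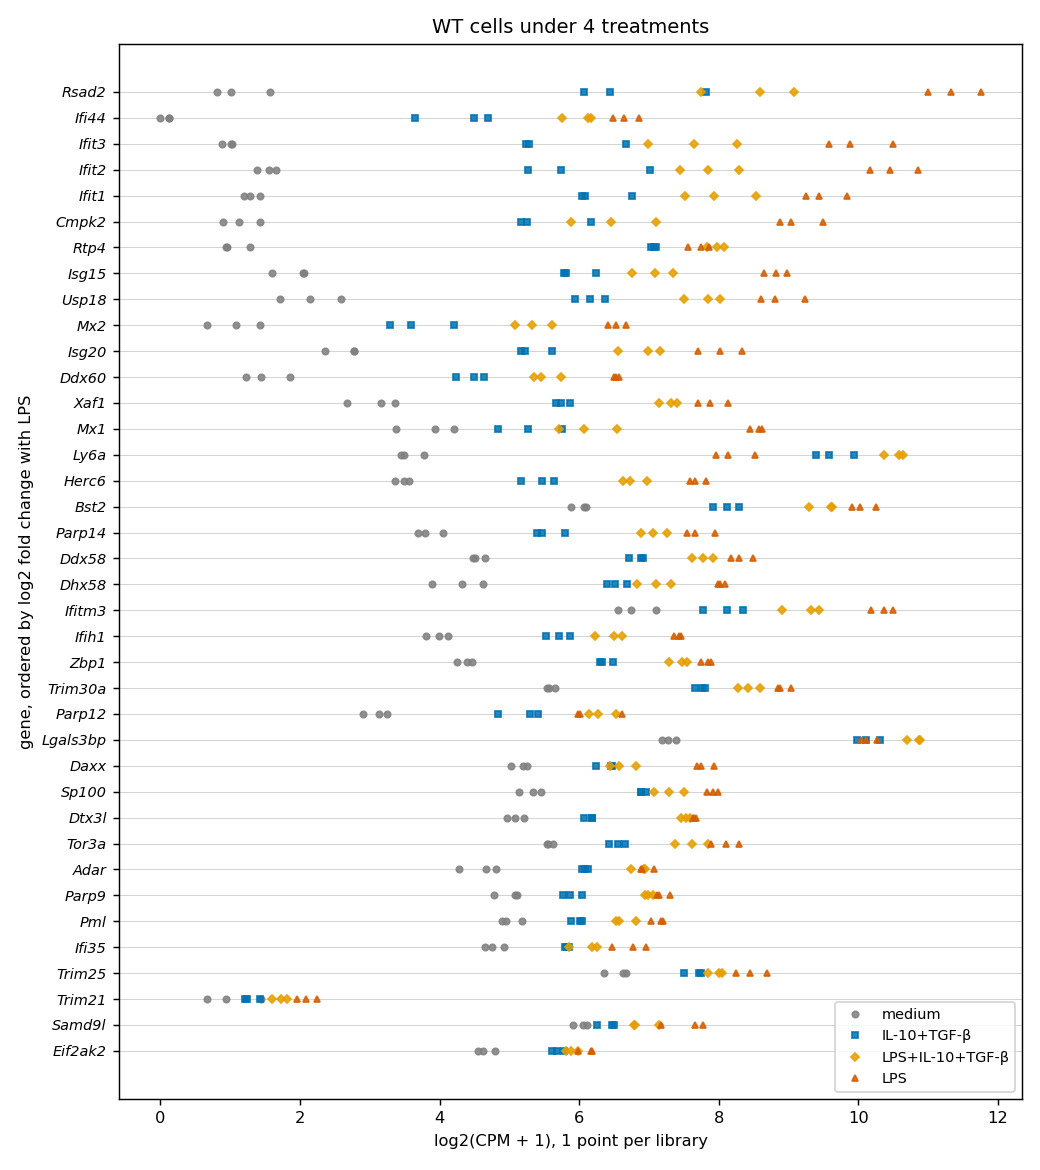
Level of each of the 38 members, as log2(CPM + 1), in the 3 WT libraries of each of the 4 treatments, 1 point per library, with genes ordered by their LPS response. For 34 members the LPS group had the highest mean, and for Parp12, Rtp4, Lgals3bp and Ly6a it was the group given LPS with cytokines.

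IL10 with TGF-β, given without LPS, also raised the set. Of the 38 members 37 were higher and 0 lower, against 18.3% and 16.9% of all genes (35.2% called), and 37 had their libraries wholly above medium and 0 wholly below, against 24.2% and 23.2%. The median was 2.15 beside -0.00 over all genes, and the summed level was 4834 to 5936 TPM. Trim21, a cytosolic antibody receptor, was the exception, with a log2 fold change of 0.43 ± 0.34 (SE), adjusted p = 0.36. It rested on only 7, 20 and 11 counts in medium and 14, 20 and 16 with cytokines. Samd9l, which restricts poxviruses, was the smallest of those called at 0.39 ± 0.14 (SE), adjusted p = 0.04. That call was lost without any 1 of 5 of the 6 libraries (adjusted p 0.055 to 0.13, the exception being cytokine replicate 3). Set against LPS alone, the cytokine libraries lay wholly below in 36 members, against 32.5% of all genes, wholly above in Ly6a alone, against 31.7%, and overlapped in Lgals3bp.

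When LPS was given with the cytokines, most members stayed below their level with LPS alone. Of the 38, 29 were lower and 2 higher, against 21.1% and 19.1% of all genes (40.3% called), and 33 lay wholly below, against 27%, and 2 wholly above, against 25.5%. The median was -0.64 beside -0.01. Relative to cytokines alone, LPS with cytokines raised 33 of the 38 and lowered 0, against 23.9% and 23.1% (46.9% called), with a median of 1.08 beside -0.00. In that contrast 34 lay wholly above and 0 wholly below, against 30.4% and 29.8%. The largest changes in it were those of Ifit3 (1.85 ± 0.41 (SE), adjusted p = 0.0023), Ifit1 (1.74 ± 0.23 (SE), adjusted p = 2e-05), Ifi44 (1.74 ± 0.20 (SE), adjusted p = 1.9e-06) and Ifit2 (1.71 ± 0.36 (SE), adjusted p = 0.0016), and Bst2 had the second smallest p (1.40 ± 0.11 (SE), adjusted p = 7e-09). Without the other groups in the fit, Ifit3 and Ifit2 lost this call (adjusted p 0.066 and 0.071). The 5 not called in that contrast were Eif2ak2, Trim21, Trim25, Daxx and Ifi35. The summed level with LPS and cytokines was 8869 to 11091 TPM. The treatment comparisons share their control libraries, so the values are given side by side and were not correlated.

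The cells given cytokines also differed in marker genes. The 6 dendritic cell markers that could be tested were all lower with cytokines than in medium, and all lower with LPS and cytokines than with LPS, at 1345 to 1786 CPM against 6586 to 7474 CPM. Granulocyte precursor and neutrophil markers, of which 13 of 14 were higher with cytokines, summed to 939 to 1539 CPM in medium, 6980 to 10001 CPM with cytokines, 2243 to 4506 CPM with LPS and 6520 to 7682 CPM with both. Of 8 macrophage markers 6 were higher, with sums of 1683 to 1835 CPM in medium, 2720 to 3332 CPM with cytokines, 2298 to 2325 CPM with LPS and 3807 to 4237 CPM with both. Among plasmacytoid dendritic cell markers, Ly6d was at 0 in medium and with cytokines and Klk1 at 0 with cytokines, 3 of the 5 that could be tested were lower, and the sums were 26.1 to 55.2 CPM in medium and 21.8 to 25.9 CPM with cytokines. Their part in the members' values was not tested, and in bulk RNA fewer cells of a type and less RNA per cell cannot be told apart.

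The proteins that bind, edit or cut RNA held some of the steepest responses. Ifit1, Ifit2 and Ifit3 are neighbours on chromosome 19 whose products bind viral RNA ends or form complexes that do. In WT cells Ifit2 measured 1.95, 2.14 and 1.60 CPM in medium, 1143, 1855 and 1403 with LPS, 128, 52.7 and 37.6 with cytokines and 228, 174 and 312 with both. Ifit3 measured 0.849, 1.03 and 1.01 CPM in medium, 762, 1445 and 939 with LPS, 101, 36.9 and 37.8 with cytokines and 199, 126 and 307 with both. For both genes the 4 groups did not overlap and stood in the order medium, cytokines, both agents, LPS. The log2 fold change with LPS was 9.59 ± 0.54 (SE), adjusted p = 4.7e-09 for Ifit2 and 10.07 ± 0.64 (SE), adjusted p = 2.2e-08 for Ifit3. Cytokines added to LPS lowered Ifit2, with a log2 fold change of -2.62 ± 0.37 (SE), adjusted p = 7.1e-05, and also lowered Ifit3 (-2.31) and Ifit1 (-1.48). Reads of these close relatives may be divided differently by another counting method. The exonuclease gene Isg20 rose by 5.63 with LPS and by 2.91 with cytokines. Eif2ak2, the kinase PKR that stops translation when it meets double-stranded RNA, had the smallest LPS response of the set at 1.49 ± 0.13 (SE), and Adar, which edits A to I in double-stranded RNA, rose by 2.40. Cytokines added to LPS left those last genes uncalled, at -0.23 and -0.08.

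In all 5 nucleic acid sensors the WT libraries rose without overlap in the order medium, cytokines, both agents, LPS, as they did in 28 of the 38 members and in 1.91% of all genes. Ddx58 (RIG-I), Ifih1 (MDA5) and Dhx58 (LGP2) are the helicases that detect viral RNA in the cytosol. Ddx58 measured 24.2, 21.3 and 21.7 CPM in medium, 311, 359 and 289 with LPS, 119.9, 117 and 104 with cytokines and 218, 195 and 242 with both. With LPS the log2 fold change was 3.84 in Ddx58, 3.53 in Ifih1, 3.79 in Dhx58 and 5.59 in the related helicase Ddx60. Zbp1, a sensor of Z-form nucleic acid that can start cell death, had one of the 2 smallest p-values of the set, with 18.1, 20.1 and 21.1 CPM in medium, 235, 228 and 213 with LPS and a log2 fold change of 3.51 ± 0.10 (SE), adjusted p = 1.8e-16. The 5 rose by between 1.79 and 3.46 with cytokines, and each was lower with both agents than with LPS, by between -1.03 and -0.38.

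In the ISG15 system, Isg15 is the ubiquitin-like tag, Herc6 the mouse ligase that attaches it and Usp18 the protease that removes it and also damps the interferon receptor. Isg15 measured 2.04, 3.17 and 3.11 CPM in medium, 449.6, 502 and 400.1 with LPS, 75.0, 54.2 and 54.9 with cytokines and 134, 107 and 161 with both, without overlap. It rose by 7.34 with LPS and was lower with both agents than with LPS, with a log2 fold change of -1.75 ± 0.16 (SE), adjusted p = 1.1e-07. Usp18 and Herc6 rose by 7.07 and 4.35 with LPS and by 4.31 and 2.07 with cytokines.

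The TRIM proteins and the genes of the PML nuclear body, a nuclear structure that silences viral genomes, had a median log2 fold change with LPS of 2.39, the lowest of the 7 roles. In this role Trim30a, a regulator of inflammatory signalling, stood at 3.36, Daxx at 2.67, Sp100 at 2.63, Pml at 2.16, Trim25, a ligase that acts on RIG-I, at 1.93 and Trim21 at 1.60. Daxx measured 37.1, 35.5 and 31.5 CPM in medium, 213, 243 and 206 with LPS, 87.0, 88.0 and 74.4 with cytokines and 94.0, 86.1 and 111 with both. With both agents it was nearer the cytokine group than the LPS group, and the log2 fold change against LPS was -1.18 ± 0.11 (SE), adjusted p = 2e-08, the smallest p among the members lower in that contrast.

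The restriction factors of membranes, nucleotides and capsids held the largest response. Rsad2 encodes viperin, which makes a chain-terminating nucleotide, and Cmpk2, a nucleotide kinase, lies beside it on chromosome 12. Rsad2 measured 1.02, 1.97 and 0.757 CPM in WT medium, 2042, 3474 and 2574 with LPS, 225, 86.2 and 66.0 with cytokines and 384, 214 and 539 with both. The LPS libraries lay above all others and the medium libraries below, and the cytokine group overlapped the group given both. The log2 fold change was 11.06 ± 0.71 (SE), adjusted p = 2.3e-08 with LPS and 6.64 ± 0.64 (SE), adjusted p = 3.2e-06 with cytokines. Adding cytokines to LPS lowered it, with a log2 fold change of -2.83 ± 0.46 (SE), adjusted p = 0.00027. Cmpk2 fell in the same contrast (-2.61 ± 0.34 (SE), adjusted p = 3.3e-05), as did Mx1 (-2.42 ± 0.24 (SE), adjusted p = 7.9e-07). Mx1 and Mx2 are neighbouring dynamin-like GTPases that trap virus components, and the Mx1 allele of C57BL/6 mice is known to make no working protein. Mx2 rose by 6.33 with LPS and Mx1 by 4.77. Bst2, which tethers budding virions, and Ifitm3, which blocks virus entry from endosomes, rose by 4.07 and 3.55, and Samd9l by 1.54. All 7 genes of this role were lower with both agents than with LPS alone.

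**Figure D2:**
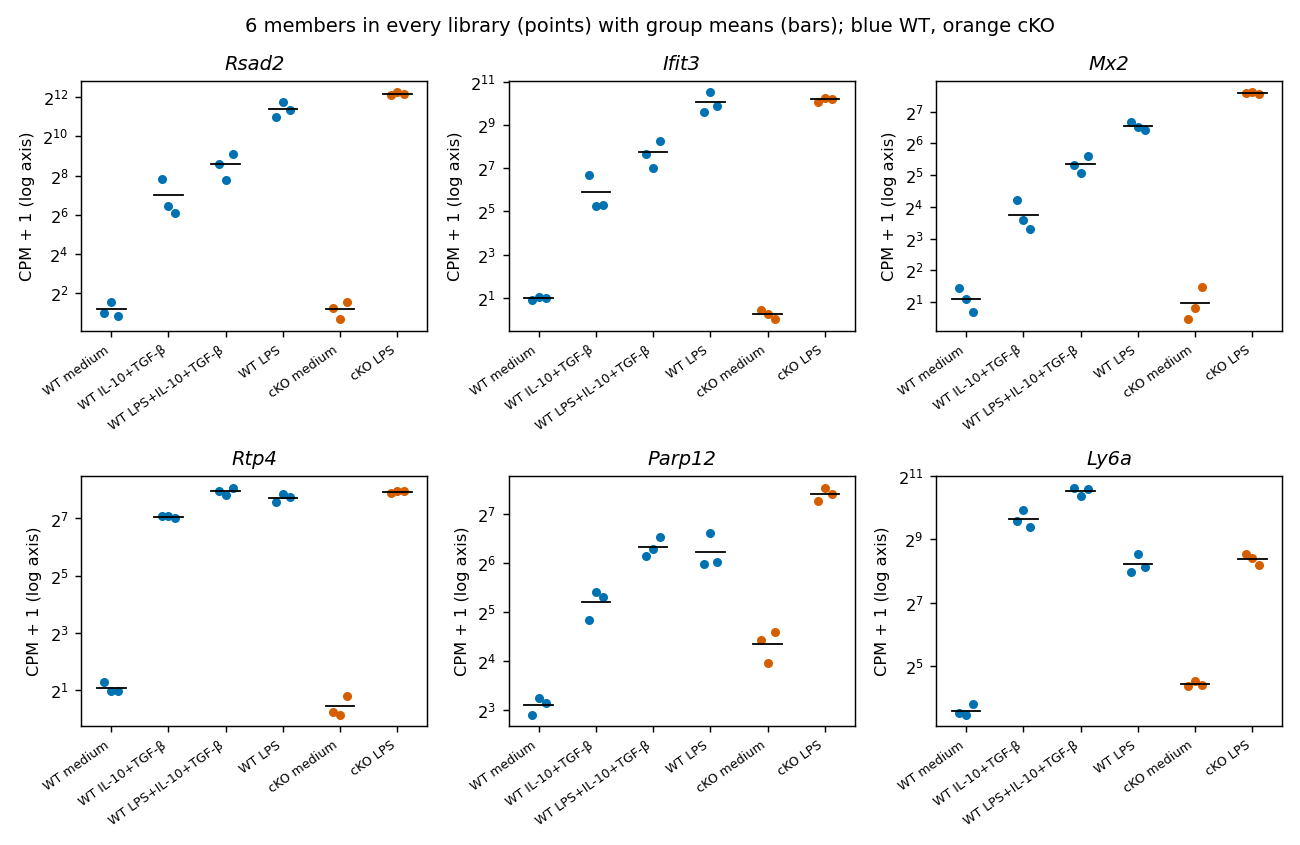
CPM + 1 on a log axis for Rsad2, Ifit3, Mx2, Rtp4, Parp12 and Ly6a, 1 point per library and a black line at each group mean, in the 6 groups. Rsad2 and Ifit3 peak with LPS, Ly6a peaks with LPS and cytokines, and Parp12 is higher in cKO than in WT libraries with medium and with LPS.

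Parp12 and Parp14 add single ADP-ribose groups to proteins, and Parp9 works with the ubiquitin ligase Dtx3l. With LPS they rose by 3.29, 3.97, 2.23 and 2.60. Of these 4, Parp14 alone was called lower with both agents than with LPS (-0.65). Dtx3l was called higher with both agents than with cytokines, with 71.8, 71.9 and 66.3 CPM against 191, 175 and 183 and a log2 fold change of 1.39 ± 0.09 (SE), adjusted p = 8.1e-10, the smallest p of the set in that contrast. Dtx3l and Parp9 overlap by 558 bp, so their reads cannot be told apart there without strand.

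Ly6a and Rtp4 were among the 4 members whose mean was highest with both agents. Ly6a encodes Sca-1, a surface protein of stem and activated cells. It measured 10.3, 9.95 and 12.7 CPM in medium, 248, 368 and 279 with LPS, 762, 979.9 and 674 with cytokines and 1596, 1316 and 1537 with both, so that every cytokine library lay above every LPS library. The log2 fold change was 4.76 with LPS, 6.20 ± 0.19 (SE), adjusted p = 3.9e-15 with cytokines and 2.32 ± 0.15 (SE), adjusted p = 5.6e-10 for both agents against LPS. On the length-adjusted scale it was the highest member with cytokines, at 1522 ± 261 TPM, and with both agents, at 2541 ± 196 TPM. Rtp4, a chaperone that also restricts RNA viruses, measured 1.44, 0.943 and 0.925 CPM in medium, 188, 232 and 214 with LPS, 133, 136 and 129 with cytokines and 249.6, 227 and 269.6 with both. Its log2 fold change was 7.57 ± 0.19 (SE), adjusted p = 2.7e-17 with LPS and 6.89 ± 0.19 (SE), adjusted p = 2.4e-16 with cytokines, and 0.23, not called, for both agents against LPS.

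Lgals3bp, a secreted glycoprotein that binds galectin-3, was the other member higher with both agents than with LPS, at 0.67 ± 0.10 (SE), adjusted p = 2e-05, and rose by 2.87 with LPS and by 2.87 with cytokines. Ifi44, an interferon-induced cytosolic protein, rested on 2 counts over the 3 WT medium libraries. The ratio of LPS to medium was 1773 (95% exact interval 490.4 to 14651, counting error only), and that of cytokines to medium 338 (93.2 to 2798). Xaf1, whose product favours cell death, the torsin gene Tor3a and Ifi35 rose with LPS by 4.99, 2.56 and 2.01. Ifi44 was called lower with both agents than with LPS (-0.65), but not without LPS replicate 2 (-0.54, adjusted p = 0.053) or replicate 2 of the group given both agents (-0.52, adjusted p = 0.059).

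On the log2 scale, the estimated response to LPS was smaller in the presence of the cytokines than in their absence in all 38 members. This difference of responses was called in 37 of them, against 12.1% of genes negative and 8.88% positive (20.9% called), with a median of -2.72 beside 0.00. It was largest in Rsad2 (-9.47 ± 0.79 (SE), adjusted p = 2.2e-06), followed by Ifi44 (-8.77 ± 0.55), Ifit3 (-8.22 ± 0.74) and Ifit2 (-7.87 ± 0.62). Each of those genes already stood above medium in the cytokine group, and the value of Ifi44 rests on its 2 counts in WT medium. Trim21, whose counts were low, was not called (-0.95 ± 0.45 (SE), adjusted p = 0.15).

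**Figure D3:**
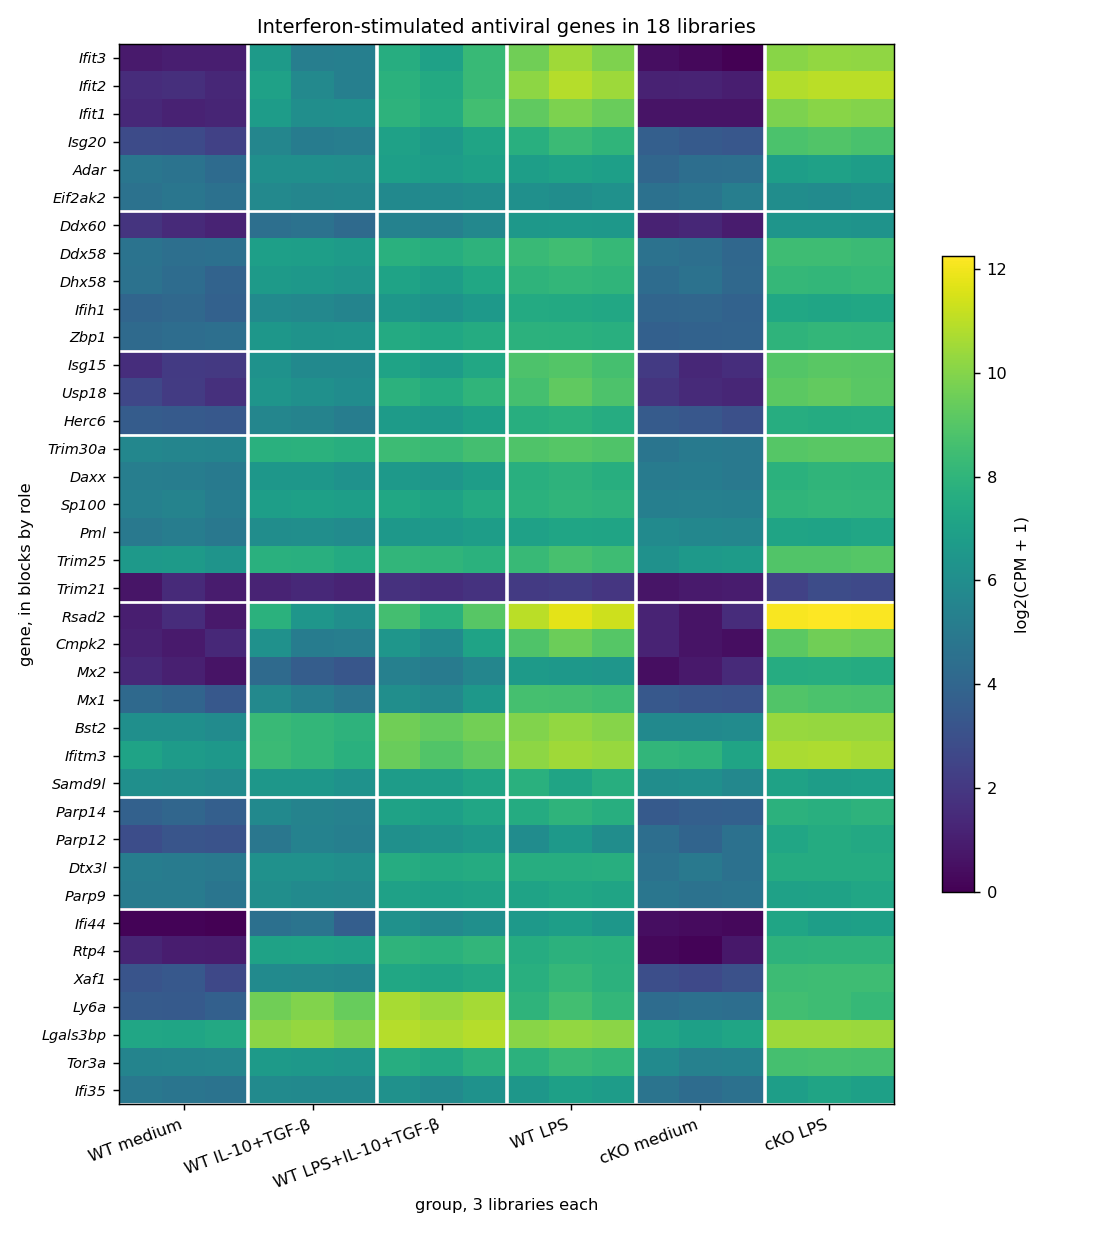
Heat map of log2(CPM + 1) for the 38 members, in blocks by role, in the 18 libraries of the 6 groups. The LPS columns of both genotypes are the brightest for most genes, the cytokine columns are intermediate, and Ly6a is brightest with LPS and cytokines.

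Other genes of the interferon pathway were read beside the members, with log2 fold changes given after each gene. Of all genes, 29.8% were called higher and 28.9% lower with LPS in WT cells, and 18.3% and 16.9% with cytokines. For both agents against LPS the shares were 19.1% and 21.1%. No interferon gene passed the filter. Of the 12 in the tables, 10 had at most 3 counts in any group. Ifnb1 had 0, 1 and 0 counts in WT medium, 22, 6 and 9 with LPS, 2, 1 and 2 with cytokines, 5, 3 and 3 with both, 0, 0 and 0 in cKO medium and 7, 5 and 3 in cKO LPS. In both genotypes every LPS library held more Ifnb1 counts than every medium library. At 8 h these counts are too few to rank the groups further. Irf7, the amplifier of interferon production, rose with LPS in WT cells (8.73) and with cytokines (6.27), and was lower with both agents than with LPS (-0.65). All 8 genes of the OAS family, which make the activator of RNase L, rose with LPS and with cytokines (Oasl2 7.57 and 6.07, Oas3 6.19 and 4.17), and 3 were lower and 1 higher with both agents than with LPS. Of 17 GBP and IRG genes, GTPases that attack pathogen vacuoles, 17 rose with LPS (Gbp9 4.14, Ifi47 3.58), 12 with cytokines (Ifi47 2.24, Igtp 1.85), and 15 were lower and 1 higher with both agents than with LPS (Iigp1 -3.30, Gbp4 -1.77).

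On the same log2 scale, of 7 interferon receptor and JAK genes 5 rose and 1 fell with LPS in WT cells (Ifnar2 1.68, Ifnar1 1.11), and with cytokines 1 rose and 3 fell (Tyk2 -0.53, Ifnar1 -0.40). Of 9 genes of the TLR4 to IRF3 branch 7 rose with LPS (Ticam1, which encodes TRIF, 1.46, and Ticam2, its adaptor, 1.16). With cytokines 1 rose and 1 fell, namely Cd14 (1.61) and Ticam2 (-1.37). Of 7 negative regulators of interferon signalling 6 rose and 1 fell with LPS (Socs3 2.64, Socs1 2.63), and 4 rose with cytokines (Socs3 1.99, Ptpn6 0.64).

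The Bat3 cKO cells mounted the same direction of LPS response in every member. All 38 were higher and 0 lower with LPS than in medium, against 29.3% and 34.8% of all genes (64.1% called). All 38 had their LPS libraries wholly above medium and 0 wholly below, against 30.8% and 36.4%. The median was 4.12 beside -0.09, and the response reached 4-fold in 35 members, 16-fold in 21 and 100-fold in 10. Some of the largest rest on few counts in cKO medium, such as 6 in Ifit3 and 11 in Rtp4. These threshold counts were therefore not compared between genotypes. Ifit3 rested on 4, 2 and 0 counts in cKO medium and rose to 1072, 1206 and 1184 CPM, a log2 fold change of 12.50 ± 0.77 (SE), adjusted p = 1e-08 and a ratio of 6180.3 (95% exact interval 2839 to 16843, counting error only). Rsad2 measured 1.36, 0.577 and 1.96 CPM in cKO medium and 4408, 4843 and 4628 with LPS, with a log2 fold change of 11.78 ± 0.72 (SE), adjusted p = 1e-08. Ifit1 and Ifit2 followed at 10.77 ± 0.39 and 10.63 ± 0.57 (SE), and Rtp4 (9.42 ± 0.23 (SE), adjusted p = 9.8e-18) and Zbp1 (4.31 ± 0.11 (SE), adjusted p = 9.8e-18) had the smallest p-values. The summed level was 1078 to 1452 TPM in cKO medium and 14610 to 15181 TPM in cKO LPS.

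In medium, single members differed by genotype, in both directions. Of the 38 members 5 were higher and 5 lower in cKO than in WT, against 15.8% and 14.4% of all genes. The share called was 26.3%, near the 30.2% of all genes. Libraries did not overlap in 6 higher and 8 lower members, against 20.1% and 19.3%. The median was -0.20 beside -0.00. How the members' share stood to that of all genes depended on the method. With DESeq2 14 members were called, 5 higher and 9 lower, against 15.0% and 16.4% of all genes. On log2(TPM + 0.1) 18 were called, 6 higher and 12 lower, against 11.7% and 17.1%. With RLE or upper-quartile factors the count stayed at 10.

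Parp12 measured 6.45, 8.49 and 7.74 CPM in WT medium and 20.5, 14.4 and 23.1 in cKO medium, with no overlap and a log2 fold change of 1.36 ± 0.22 (SE), adjusted p = 0.00023. The others higher were Isg20 (0.98 ± 0.22 (SE), adjusted p = 0.0031), Ifitm3 (0.97 ± 0.21 (SE), adjusted p = 0.003), Ly6a (0.89 ± 0.17 (SE), adjusted p = 0.00062) and Pml (0.73 ± 0.10 (SE), adjusted p = 3.8e-05). Ly6a stood at 19.3, 21.8 and 20.1 CPM in cKO medium, all above its WT values. Among those lower, Rtp4 measured 0.181, 0.0962 and 0.745 CPM in cKO medium, on 2, 1 and 8 counts, and its log2 fold change was -1.65 ± 0.40 (SE), adjusted p = 0.004. Trim30a (-0.67 ± 0.10 (SE), adjusted p = 4.9e-05) and Zbp1 (-0.59 ± 0.10 (SE), adjusted p = 0.00028) were lower with smaller errors, and so were Dtx3l (-0.37 ± 0.10 (SE), adjusted p = 0.0073) and Parp9 (-0.30 ± 0.11 (SE), adjusted p = 0.042), whose reads overlap. Parp9 lost its call without cKO medium replicate 2 or 3 or WT medium replicate 1 or 2 (adjusted p 0.094 to 0.16). With only these 6 libraries in the fit, Rtp4 (adjusted p 0.083), Dtx3l (0.094) and Parp9 (0.16) lost theirs. Ifit3 had 34 counts in WT and 6 in cKO medium, a WT to cKO ratio of 5.17 (95% exact interval 2.14 to 15.1, counting error only), and was not called. Granulocyte precursor and neutrophil markers were higher in cKO medium in 10 of 14 genes, with sums of 1715 to 4337 CPM against 939 to 1539 CPM, and macrophage markers summed to 1947 to 2235 CPM against 1683 to 1835 CPM, with 2 of 8 higher and 3 lower. Their part in the genotype differences was not tested. With Rn45s removed from the counts, the same 10 members were called. Without the cKO library numbered 1 of both groups, all 10 members kept their calls.

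With LPS, 7 members were higher and 1 lower in cKO than in WT, against 16% and 19.3% of all genes. The share called was 21.1%, against 35.3% of all genes. Libraries lay wholly above in 18 members and wholly below in 4, against 22.8% and 26.4%. The median was 0.22 beside -0.05. How the members' share stood to that of all genes depended on the fit. With only these groups in the fit, 16 members were called, 15 higher and 1 lower, against 19.6% and 18.7% of all genes. With upper-quartile factors 7 were called, 6 higher and 1 lower, against 13.7% and 22.7%. Parp12 measured 62.0, 96.5 and 63.8 CPM in WT LPS and 152, 185 and 168 in cKO LPS, with a log2 fold change of 1.18 ± 0.18 (SE), adjusted p = 0.00011. Mx2 measured 101, 91.5 and 84.3 CPM against 191, 194 and 186, a log2 fold change of 1.04 ± 0.21 (SE), adjusted p = 0.0013. In both genes every cKO library lay above every WT library.

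Isg20 (0.76 ± 0.17 (SE), adjusted p = 0.0019), Tor3a (0.54 ± 0.13 (SE), adjusted p = 0.0022), Xaf1 (0.50 ± 0.13, SE), Trim25 (0.47 ± 0.13, SE) and Lgals3bp (0.29 ± 0.10 (SE), adjusted p = 0.03) were also higher, and Samd9l was lower (-0.62 ± 0.14 (SE), adjusted p = 0.0021). On log2(TPM + 1), 6.10% of all genes were called higher and 45.7% lower. There 3 members were called higher and 10 lower, and the members' median was -0.12 beside -0.31 over all genes. The members' median stood above that of all genes by 0.27 in counts and by 0.19 on log2(TPM + 1), and Lgals3bp stood at -0.064 there. On that scale Parp12, Isg20 and Mx2 stayed higher and Samd9l lower, and Tor3a (0.19), Xaf1 (0.15) and Trim25 (0.12) were not called. On log2(TPM + 0.1) Mx2 lost its call as well (0.69, adjusted p = 0.15). Lgals3bp also lost its call without any 1 of 5 of the 6 libraries (adjusted p 0.05 to 0.11, the exception being WT LPS replicate 2) and without the cKO libraries numbered 1 (0.064). Plasmacytoid dendritic cell markers summed to 108 to 109 CPM in cKO LPS against 54.5 to 56.9 CPM in WT LPS, with Ly6d and Klk1 at 0 in both. Of the 5 that could be tested 2 were higher and 1 lower in cKO, and their median log2 fold change was -0.31, opposite to the sum. Macrophage markers summed to 3383 to 3495 CPM in cKO LPS against 2298 to 2325 CPM in WT LPS, without overlap. Of these 8 markers 3 were higher and 2 lower, with a median log2 fold change of 0.12. Dendritic cell markers, with Flt3 at 0 in cKO LPS, summed to 7536 to 8042 CPM against 6586 to 7474 CPM (0 of 6 called), and granulocyte precursor and neutrophil markers to 2117 to 3771 CPM against 2243 to 4506 CPM (0 of 14 called). The part of these markers in the genotype differences was not tested.

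**Figure D4:**
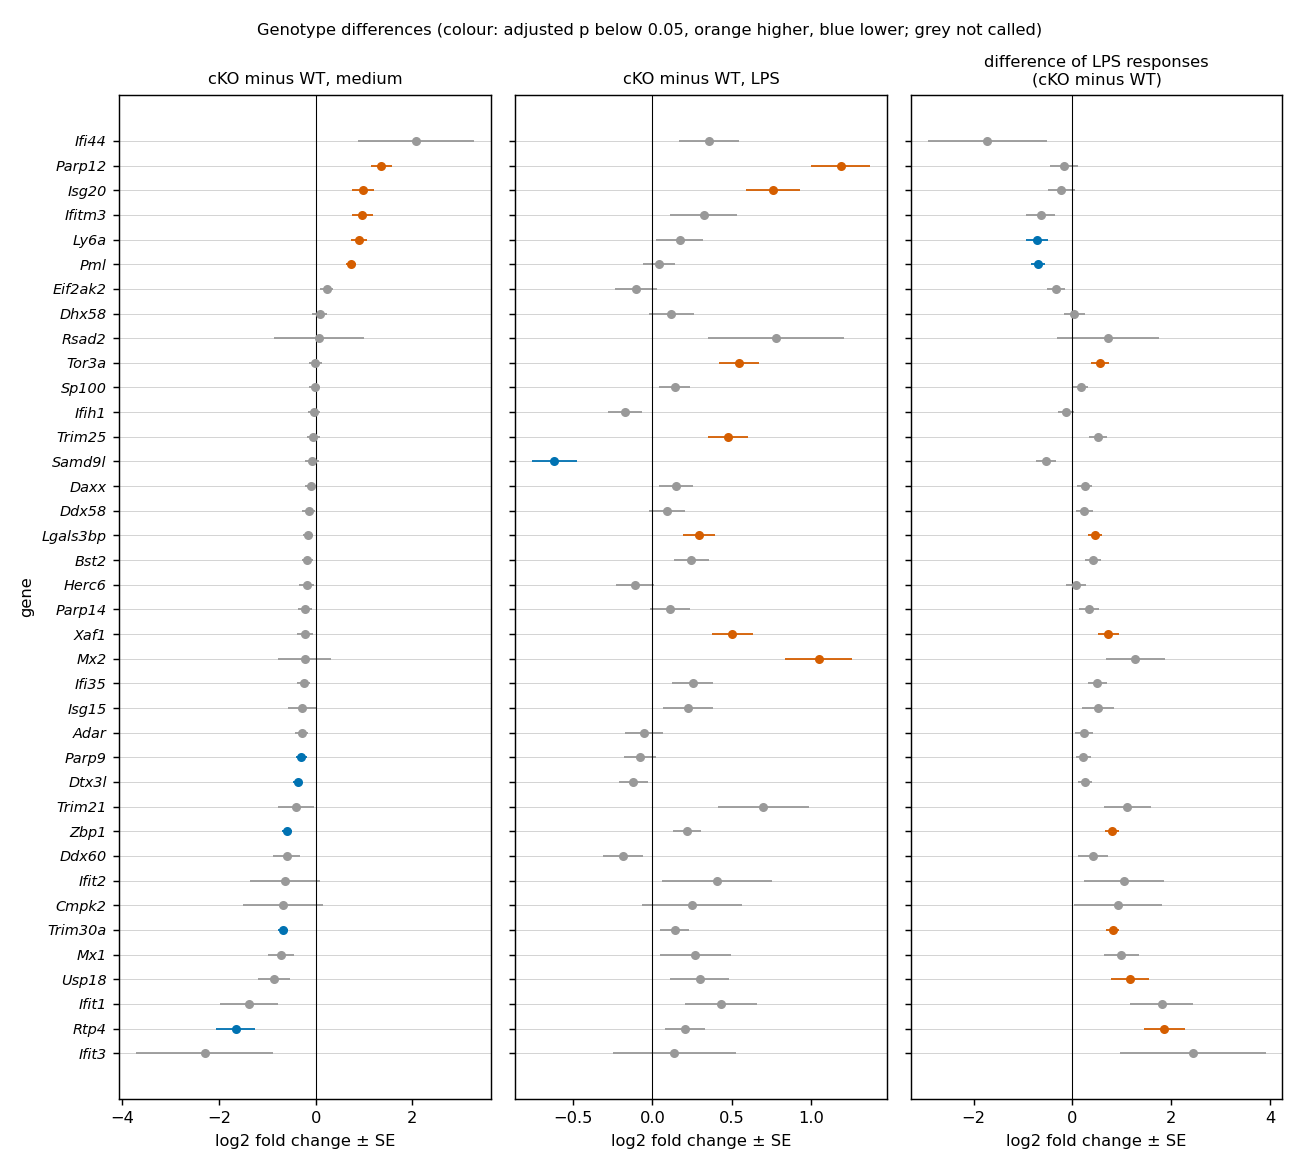
Log2 fold change with its SE for each of the 38 members in 3 panels, cKO against WT in medium, cKO against WT with LPS, and the difference between the LPS responses, coloured by call. The medians of the 3 panels are -0.20, 0.22 and 0.42, with 9, 30 and 29 of the 38 points above 0. In the third panel the points run from -1.72 to 2.43. Parp12 is higher in both of the first 2 panels, and Rtp4 is lower in medium and positive in the third.

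The LPS response differed between the genotypes in 9 members, 7 larger and 2 smaller in cKO, against 7.33% and 10.1% of all genes, so that 23.7% of members and 17.4% of all genes were called. The median was 0.42 beside -0.08. The larger responses were led by Rtp4 (1.86 ± 0.42 (SE), adjusted p = 0.005), Usp18 (1.16 ± 0.38 (SE), adjusted p = 0.045), Trim30a (0.81 ± 0.14 (SE), adjusted p = 0.00061) and Zbp1 (0.80 ± 0.14 (SE), adjusted p = 7e-04). Rtp4, Trim30a and Zbp1 were lower in cKO medium and not called different with LPS in the main fit. With LPS, Rtp4 measured 238, 246 and 248 CPM in cKO and 188, 232 and 214 in WT. DESeq2 called Zbp1 (0.26, adjusted p = 0.017) and Rtp4 (0.25, adjusted p = 0.038) higher in cKO with LPS. By limma on log2(TPM + 1) Trim30a was called lower there (-0.22, adjusted p = 0.044). The smaller responses were those of Ly6a (-0.72 ± 0.22 (SE), adjusted p = 0.032) and Pml (-0.69 ± 0.14 (SE), adjusted p = 0.003), which were higher in cKO medium. Rtp4, Trim30a, Zbp1 and Pml kept their calls in every alternative run, whereas Usp18, Xaf1 and Lgals3bp lost theirs without the cKO libraries numbered 1 (adjusted p 0.055, 0.06 and 0.054). The other calls also hung on single libraries. Usp18 (adjusted p 0.053 to 0.15) and Tor3a (adjusted p 0.052 to 0.1) were lost without any 1 library except cKO medium replicate 1 and WT LPS replicate 2, and for Usp18 also except WT medium replicate 3. Xaf1 (adjusted p 0.054 to 0.089) was lost without cKO medium replicate 2, WT LPS replicate 1, WT medium replicate 1 or WT medium replicate 2, Lgals3bp (adjusted p 0.051 to 0.078) without cKO LPS replicate 2, cKO medium replicate 2, WT LPS replicate 1, WT LPS replicate 3, WT medium replicate 1 or WT medium replicate 3, and Ly6a (adjusted p 0.067 to 0.11) without cKO LPS replicate 2, cKO LPS replicate 3, cKO medium replicate 2, WT LPS replicate 2, WT medium replicate 1 or WT medium replicate 2. On log2(TPM + 1), 3 were called larger and 4 smaller, against 3.53% and 24.3% of all genes, with a members' median of 0.06 beside -0.25.

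The pathway lists were also compared between genotypes, with the log2 fold change of cKO against WT after each gene. Of all genes, 15.8% were called higher and 14.4% lower in medium, and 16% and 19.3% with LPS. The regulatory factor genes Irf1 (1.31) and Irf9 (0.40) were higher in cKO with LPS. Of 9 TLR4 branch genes Cd14 was higher in medium (1.28), and with LPS 4 were higher and 1 lower (Cd14 1.37, Tlr4 -0.81). Of 7 receptor and JAK genes 2 were higher in medium (Ifnar2 0.45, Ifnar1 0.30), and with LPS 2 were higher and 1 lower (Ifnar2 0.67, Jak1 -0.30). Of 7 negative regulators 3 were higher and 1 lower with LPS (Ptpn2 1.33, Socs1 0.64), and Socs3 was higher (0.99) and Ptpn11 lower (-0.62) in medium. In the OAS family Oas1a was lower in medium (-0.54), and 3 genes were higher with LPS (Oasl2 0.52, Oas2 0.56). Of the 17 GBP and IRG genes 1 was higher and 3 lower in medium (Irgm1 -1.46, Gbp3 -0.95), and 2 were higher with LPS (Gbp5 1.05, Iigp1 0.85).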

How the data were processed

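RNA of 18 libraries was measured by sequencing. The authors deposited, per the file headers, RSEM expected counts and TPM per gene for each library, with reads assigned to the mm10 build, per the submitters' processing notes. The RSEM version and the aligner are not given in the sources used here, and neither is the use of strand. Expected counts were rounded. Genes were kept by edgeR's filterByExpr (11876 of 23420), scaled by TMM, and fitted over all 18 libraries with robust quasi-likelihood tests (edgeR 4.0.16, R 4.3.3). The biological coefficient of variation was 0.133. CPM uses TMM-scaled library sizes, and SE is the log2 fold change divided by the root of F. The members and gene lists were chosen with earlier results of these data known. Full statistics were given for the 4 called members with the largest change and the 2 with the smallest p in each direction (4 for interactions), and for the 2 called genes of smallest p in each pathway list. The authors' TPM were used for levels between genes and, as log2(TPM + 1) and log2(TPM + 0.1), with limma 3.58.1. Other alternatives were RLE and upper-quartile factors, DESeq2 1.42.0, no count filter, at least 5 CPM in 3 libraries, removal of Rn45s, a fit of the compared groups only, a replicate block, leaving out each library, and leaving out both cKO libraries numbered 1. Replicate numbers come from the sample titles. The deviations of same-numbered libraries correlated above 0.1 in every pair only for cytokines against medium (0.36, 0.24 and 0.46 over 7505 genes). Differently numbered libraries were not compared, so these values do not establish a pairing. Replicates differed by more than sampling noise (chi-square per degree of freedom 3.64 to 36.3). Data were also simulated for LPS against medium in WT with 11594 genes, of which few were changed and the rest had 1 mean in all groups. At a true 1.5-fold change 35.8% of 67 genes were called, at 2-fold 75.4% of 65 and at 4-fold 89.2% of 65. There were 11 false calls among 142. In the real contrast 58.7% of all genes were called, so these shares are not estimates for it. Intervals of ratios cover counting error only. One pathway item is not reported here.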

Additional observations from a re-analysis of the deposited data

Results flagged for a closer look

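The LPS response of 9 members differed between the genotypes by the test of the difference itself (edgeR's quasi-likelihood test, Benjamini-Hochberg adjusted over all genes). On the log2 scale the cKO response minus the WT response was 0.80 in Zbp1, 1.16 in Usp18, 0.81 in Trim30a, 1.86 in Rtp4, 0.72 in Xaf1, 0.55 in Tor3a and 0.45 in Lgals3bp. It was -0.69 in Pml and -0.72 in Ly6a. Across all genes 17.4% were called in this test.

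The LPS response of 37 members differed between WT cells given cytokines and WT cells not given them, by the same kind of test, which called 20.9% of all genes. On the log2 scale, the response with cytokines minus the response without them was negative in each. In the RNA binding and editing effectors the difference was -7.22 in Ifit1, -7.87 in Ifit2, -8.22 in Ifit3, -1.29 in Eif2ak2, -1.60 in Adar and -4.03 in Isg20. In the nucleic acid sensors the difference was -2.77 in Ifih1, -2.89 in Ddx58, -3.22 in Dhx58, -4.49 in Ddx60 and -2.43 in Zbp1. In the ISG15 system the difference was -6.21 in Isg15, -5.41 in Usp18 and -2.98 in Herc6. In the TRIM and nuclear body genes the difference was -1.62 in Trim25, -2.67 in Trim30a, -1.48 in Pml, -2.24 in Sp100 and -2.44 in Daxx. In the restriction factors the difference was -2.40 in Ifitm3, -2.67 in Bst2, -9.47 in Rsad2, -7.85 in Cmpk2, -3.94 in Mx1, -4.65 in Mx2 and -1.03 in Samd9l. In the PARP genes and Dtx3l the difference was -1.12 in Parp9, -2.15 in Parp12, -2.44 in Parp14 and -1.21 in Dtx3l. In the remaining members the difference was -6.66 in Rtp4, -3.45 in Xaf1, -8.77 in Ifi44, -1.73 in Ifi35, -1.47 in Tor3a, -2.19 in Lgals3bp and -3.88 in Ly6a.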

How the results depend on the processing

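All 38 members rose with LPS in both genotypes under every alternative in which they were tested (Trim21 fell below the filter of 5 CPM in 3 libraries). With cytokines 36 of 37 calls held in every alternative (exception Samd9l), for both agents against LPS 30 of 31 (exception Ifi44), for both agents against cytokines 26 of 33, and for the cytokine by LPS difference 37 of 37. With only the groups compared in the fit, Ifit2, Ifit3, Rsad2, Cmpk2 and Mx1 lost their calls for both agents against cytokines, and Cmpk2 also lost its call without replicate 2 or 3 of the cytokine group and, with Mx1, without replicate 3 of the group given both.

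The genotype counts moved more, and the share of all genes called is given beside them. In medium, 7 of 10 calls held in every alternative, and the count was 18 on log2(TPM + 0.1) in place of 10, with 6 higher and 12 lower (28.8% of all genes called, 30.2% in counts), 14 with DESeq2, which added Ifit1, Ifit3, Usp18 and Mx1 as lower (31.4%), and 9 to 14 with 1 library left out. With LPS, 3 of 8 held (Parp12, Isg20 and Samd9l). The count was 13 on log2(TPM + 1) (51.8% of all genes, 35.3% in counts) and 7 to 10 with 1 library left out. With only the groups compared it was 16, with 15 higher and 1 lower (38.3%). That fit added Ifit1, Ifit2, Zbp1, Trim21, Ifitm3, Rsad2, Mx1 and Ifi44 as higher. In cKO against WT with LPS, Lgals3bp reversed to -0.064 on log2(TPM + 1) and -0.064 on log2(TPM + 0.1) (adjusted p 0.55). For the difference between genotypes in the LPS response, 4 of 9 held, and the count was 16 with DESeq2 (19.0% of all genes, 17.4% in edgeR), 18 with no count filter (11.1% of a longer list of genes) and 5 to 13 with 1 library left out. The lowest count, 5, came without cKO LPS replicate 2, cKO medium replicate 2, WT LPS replicate 1, WT medium replicate 1 or WT medium replicate 2, and the highest, 13, without WT LPS replicate 2. Without both cKO libraries numbered 1 the counts were 10, 7 and 6. The cause of these shifts was not tested.

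With the replicate block the counts of members called were 10, 8 and 9 for the genotype comparisons, 38 in each LPS comparison, 37 for cytokines, 31 and 34 for both agents against LPS and against cytokines, and 37 for the cytokine by LPS difference. For cytokines against medium, where same-numbered libraries correlated most strongly, the block changed no call. Elsewhere Usp18 lost its genotype call (adjusted p 0.06) and Trim25 gained one there and for both agents against cytokines. Members at a few counts in medium, such as Ifi44, Ifit3 and Rtp4, are limited by depth.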
